A study of Mus musculus with 60 samples.

Results

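The genes described here are 9 members of the interleukin-2 (IL-2) and common gamma chain receptor system, taken from a table of 55414 genes by their Ensembl identifiers. They comprise 2 ligands and 7 receptor chains. The ligands are Il2 (ENSMUSG00000027720) and Il15 (ENSMUSG00000031712). The chains of the IL-2 receptor are Il2ra (ENSMUSG00000026770), Il2rb (ENSMUSG00000068227) and Il2rg (ENSMUSG00000031304). The chains particular to other cytokines of the family are Il4ra (ENSMUSG00000030748), Il7r (ENSMUSG00000003882), Il15ra (ENSMUSG00000023206) and Il21r (ENSMUSG00000030745). All 9 were present in the table, and each was followed across all 60 libraries.

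The libraries are polyA RNA of naive CD8 T cells, taken by negative selection from spleens of NOD mice, a strain prone to autoimmune diabetes. Every mouse bore the OT-I transgene, which fixes the T cell receptor to an ovalbumin peptide, and was Sh2b3 -/- or wild type (Sh2b3 +/+). Stimulation was by anti-CD3 coated on the plate (10 µg/mL) together with anti-CD28 in solution (5 µg/mL), for 2, 6 or 24 h, and the resting cells are called 0 h here. Some 24 h wells of both genotypes also received a blocking anti-IL-2 antibody (10 µg/mL). Each genotype had 11 resting libraries, 5 libraries per stimulated time point and 4 libraries with antibody. Ages are not given, and the labels do not say whether libraries of a group came from separate animals, so p-values measure the spread between these libraries only.

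IL-2 is secreted by activated T cells and acts back on them. Its receptor joins an alpha chain (Il2ra, CD25), which raises affinity but does not signal, with a beta chain (Il2rb, CD122) and the common gamma chain (Il2rg, CD132), which carry JAK1 and JAK3 and activate STAT5. IL-15 uses the same beta and gamma chains and is presented by its own alpha chain, Il15ra. Il4ra, Il7r and Il21r pair with the common gamma chain in the receptors of IL-4, IL-7 and IL-21. Naive CD8 T cells depend on IL-7 for survival, and CD25 is a classical activation antigen of T cells. Sh2b3 (Lnk) is an adaptor protein that dampens JAK signalling downstream of several cytokine receptors.

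Library totals ran from 13987029 to 35476519 counts, with a median of 17994613. Levels are given in CPM, counts scaled to library totals by TMM. Sh2b3 itself averaged 11.3 to 21.8 CPM in the 5 Sh2b3 -/- groups and 71.1 to 147 CPM in the 5 wild-type groups, with no overlap between genotypes at any time. Library numbers fall into 4 sets that the labels do not explain. Set A holds the 2 h and 6 h libraries and 5 of each genotype at 0 h. Sets B and C share the remaining 0 h libraries and all 24 h libraries without antibody. Set D holds every anti-IL-2 library and no other, so that set and antibody cannot be told apart. CD8 T cell markers were abundant throughout (summed means of 1869 to 4887 CPM), Cd4 stayed at or under 1.77 CPM and Foxp3 at or under 3.97 CPM. In bulk RNA, fewer cells of a type and less RNA per cell cannot be told apart.

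Promoter sequences from RefSeq (build GRCm38.p6, which is not the build of the counts) were found for 7 of the 9 genes, Il15ra with a pair of start sites. Each spans 250 bases before to 50 bases after the start. Both strands were searched for TTCNNNGAA, the palindromic core of STAT binding sites, and for TGANTCA, the core of AP-1 sites. The first occurs in 8.3% and the second in 7.81% of 32851 mouse promoters of this length. Of the 8 promoters, Il7r held the first motif (TTCAGGGAA, bases -142 to -134) and the second Il15ra promoter held the other (TGAGTCA, bases -30 to -24). These are shown with the motif in capitals, beside Il2 and Il2ra, whose levels moved together and whose windows hold neither set of letters. The windows are chr3:37125905-37126204 on the minus strand for Il2, chr2:11642542-11642841 on the plus strand for Il2ra, chr15:9529827-9530126 on the minus strand for Il7r and chr2:11705462-11705761 on the plus strand for Il15ra.
Il2: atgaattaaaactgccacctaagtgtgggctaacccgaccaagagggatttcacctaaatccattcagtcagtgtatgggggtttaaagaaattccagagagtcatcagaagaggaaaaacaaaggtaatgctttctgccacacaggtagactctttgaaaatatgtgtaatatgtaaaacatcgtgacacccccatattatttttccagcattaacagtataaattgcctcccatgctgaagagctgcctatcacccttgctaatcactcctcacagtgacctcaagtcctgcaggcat
Il2ra: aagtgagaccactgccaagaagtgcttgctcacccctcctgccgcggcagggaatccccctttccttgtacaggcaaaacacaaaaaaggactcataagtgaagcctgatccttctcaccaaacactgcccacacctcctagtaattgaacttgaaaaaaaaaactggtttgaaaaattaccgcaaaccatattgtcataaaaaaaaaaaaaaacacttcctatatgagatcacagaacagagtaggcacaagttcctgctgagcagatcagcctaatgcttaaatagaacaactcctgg
Il7r: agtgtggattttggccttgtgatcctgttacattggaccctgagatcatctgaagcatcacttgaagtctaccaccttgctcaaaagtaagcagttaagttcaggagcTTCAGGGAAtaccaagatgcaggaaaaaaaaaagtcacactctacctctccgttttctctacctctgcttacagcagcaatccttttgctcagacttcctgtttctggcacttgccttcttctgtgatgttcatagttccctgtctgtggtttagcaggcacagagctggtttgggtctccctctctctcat
Il15ra: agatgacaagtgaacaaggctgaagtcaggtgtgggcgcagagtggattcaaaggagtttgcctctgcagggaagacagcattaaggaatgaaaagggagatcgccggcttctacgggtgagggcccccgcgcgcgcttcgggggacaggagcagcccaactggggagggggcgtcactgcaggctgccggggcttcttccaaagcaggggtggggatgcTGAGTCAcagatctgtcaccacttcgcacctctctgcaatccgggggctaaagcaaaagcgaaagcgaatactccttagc

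Per kb of exon, the common gamma chain was the most abundant of the 9 transcripts in all 10 groups. In unstimulated cells Il2rg averaged 185 ± 23.2 CPM per kb in Sh2b3 -/- and 187 ± 12.9 CPM per kb in wild type (SD, n = 11 each). Below it came Il7r (70.4 ± 15.1 in Sh2b3 -/- and 77.96 ± 13.4 in wild type), Il21r (70.6 ± 5.45 and 72.1 ± 3.20), Il2rb (53.4 ± 12.9 and 56.9 ± 4.65) and Il4ra (40.3 ± 5.19 and 40.9 ± 4.41), in the same units and order of genotypes. Il7r and Il21r were within one another's spread, as were Il2rb and Il4ra in Sh2b3 -/- cells. Il15ra (2.29 ± 0.54 and 1.94 ± 0.40 CPM per kb), Il2ra (0.40 ± 0.21 and 0.70 ± 0.15) and Il15 (0.28 ± 0.24 and 0.38 ± 0.15) were far lower, and Il2 was close to absent.

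After 24 h the order had changed. In Sh2b3 -/- cells Il2rg (166 ± 16.9 CPM per kb) was followed by Il2rb (114 ± 13.2), Il7r (86.1 ± 41.8), Il2ra (78.8 ± 13.8), Il21r (45.7 ± 5.29) and Il4ra (31.6 ± 3.70; SD, n = 5). In wild type the sequence was Il2rg (177 ± 19.2), Il7r (114 ± 63.0), Il2rb (105 ± 12.1), Il2ra (53.3 ± 24.6), Il21r (48.96 ± 2.82) and Il4ra (24.5 ± 1.81). Il7r varied so widely between 24 h libraries that it did not separate from Il2rb or Il2ra in either genotype, and Il2ra and Il21r did not separate in wild type. Il2 reached 6.57 ± 1.71 CPM per kb in Sh2b3 -/- and 5.78 ± 3.46 in wild type, above Il15ra and Il15.

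**Figure D1:**
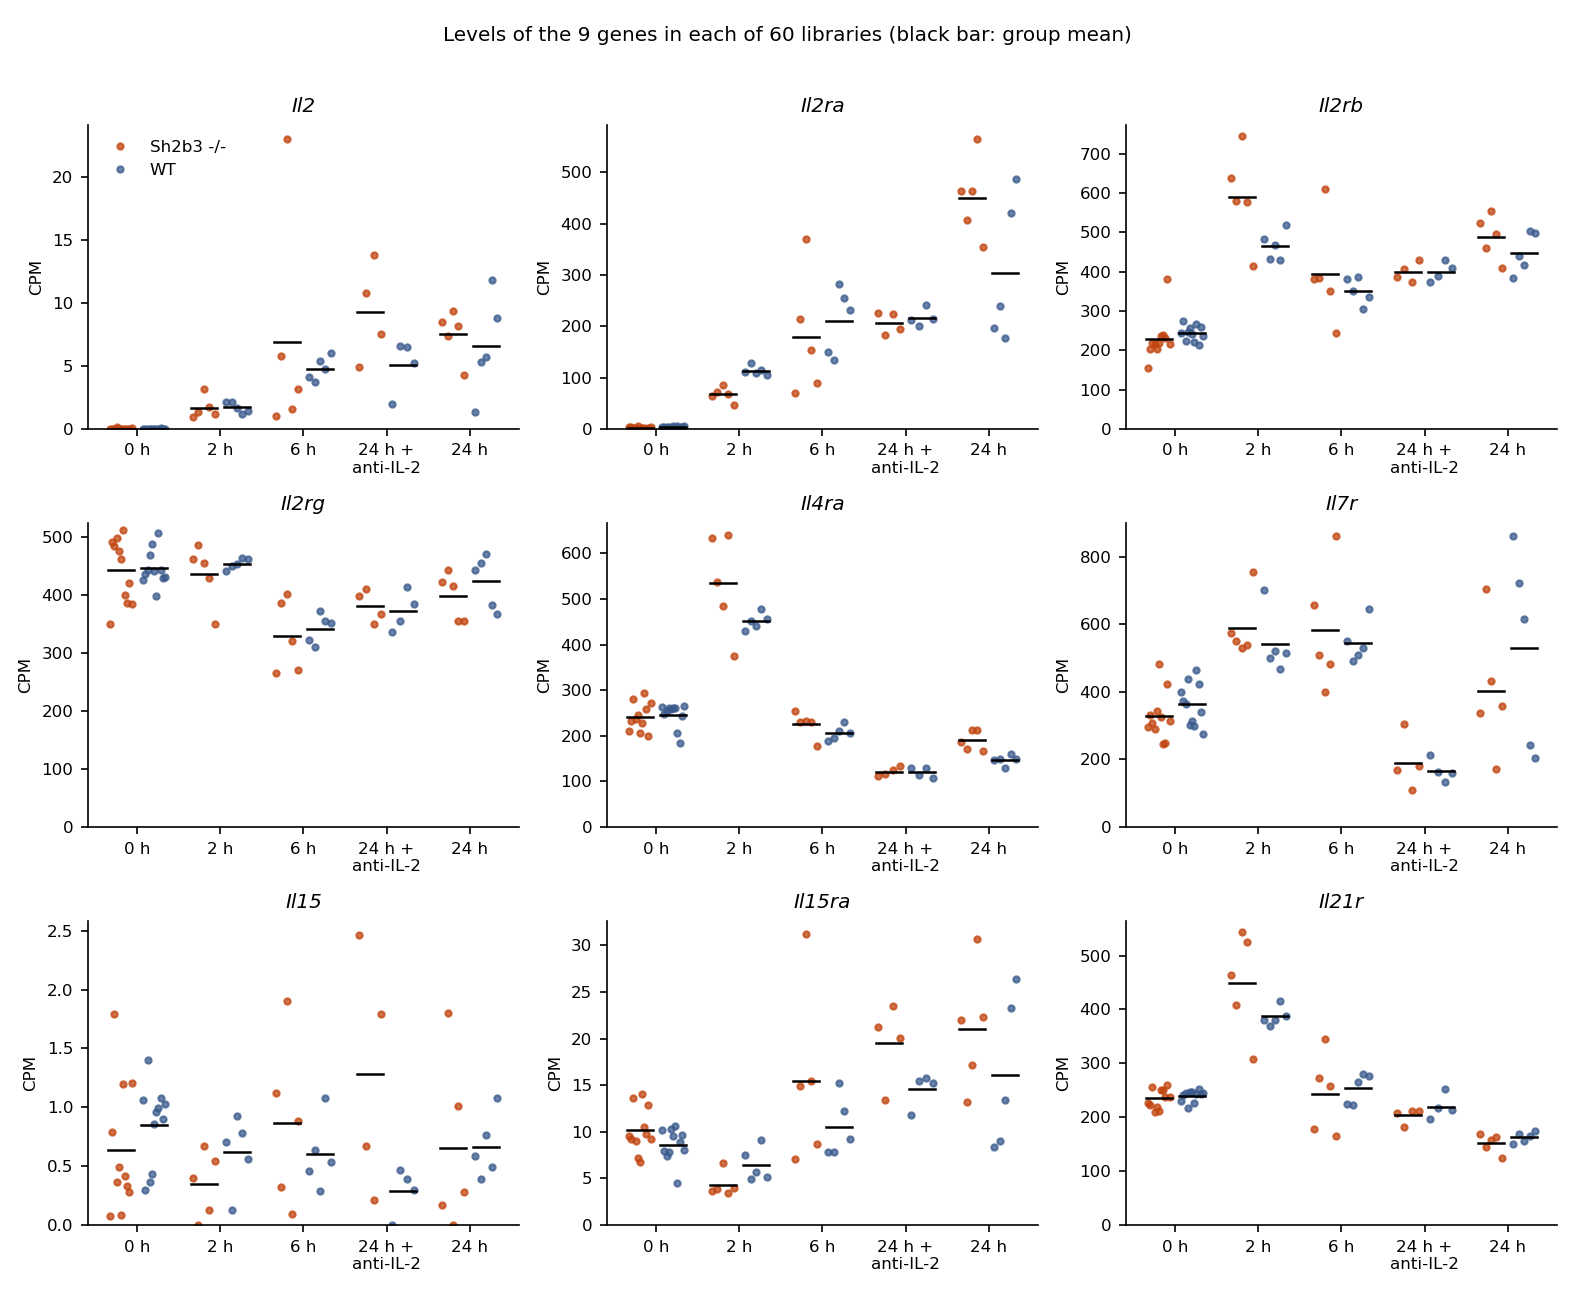
CPM of each of the 9 genes in each of the 60 libraries, by time and antibody, with Sh2b3 -/- libraries on the left (orange) and wild-type libraries on the right (blue) of each pair; black bars are group means and each gene has its own axis from 0. Il2ra averaged 2.26 CPM in Sh2b3 -/- and 4.02 CPM in wild type at 0 h and reached 450 CPM in Sh2b3 -/- and 305 CPM in wild type at 24 h, while Il2rg stayed between 329 and 453 CPM in every group mean.

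The time course compares stimulated with unstimulated cells within each genotype. At 2 h 6 of the 9 genes had risen in each genotype (Il2, Il2ra, Il2rb, Il4ra, Il7r and Il21r). Of all genes tested, 48.4% were called in Sh2b3 -/- (23.9% higher, 24.5% lower) and 53.6% in wild type (26.4% higher, 27.2% lower). A call is an adjusted p under 0.05 in edgeR's quasi-likelihood test over all genes. Il15ra fell in Sh2b3 -/- at 2 h. At 6 h 4 of the 9 genes stood above 0 h in each genotype, and 0 in Sh2b3 -/- and 2 in wild type stood below it. The backgrounds at 6 h were 42.6% in Sh2b3 -/- (22.8% higher, 19.8% lower) and 49% in wild type (24.9% higher, 24.1% lower). At 24 h 4 genes stood above 0 h in each genotype, and 3 in Sh2b3 -/- and 2 in wild type stood below, against 60% of all genes in Sh2b3 -/- (30.1% higher, 29.8% lower) and 59.4% in wild type (27.8% higher, 31.6% lower). Between 2 and 6 h 3 genes rose and 4 fell in each genotype, beside 30.8% of all genes called in Sh2b3 -/- (17% higher, 13.8% lower) and 37.4% in wild type (18.8% higher, 18.5% lower). Between 6 and 24 h 0 rose, and 1 in Sh2b3 -/- and 2 in wild type fell, beside 33.2% of all genes in Sh2b3 -/- (17% higher, 16.2% lower) and 32.3% in wild type (14.8% higher, 17.5% lower). In wild type DESeq2 called 2 genes higher in this step, Il2ra (0.75, adjusted p = 0.0311) and Il2rb (0.33, adjusted p = 0.0183). In wild type 6013 of all 14431 genes had an unadjusted p under 0.05 in edgeR, 3 higher and 2 lower members among them. Each of Il2ra and Il2rb was called there on leaving out any of 4 single libraries (adjusted p = 0.0156 to 0.0454 and 0.0237 to 0.0394), and Il15ra on leaving out any of 3 (adjusted p = 0.0354 to 0.0477). In Sh2b3 -/- 0 were higher in DESeq2 and 0 at an unadjusted p under 0.05 in edgeR, but without replicate 3 at 6 h Il2rb (0.72, adjusted p = 0.0228) and Il15ra (0.90, adjusted p = 0.042) were called. Il15 was called at no time in either genotype.

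Il2, the T cell growth factor, was almost silent in resting cells. A read was found in 2 of 11 Sh2b3 -/- libraries, 5 reads in all, and in 1 of 11 wild-type libraries, 1 read in all. At 2 h the libraries held 0.91, 1.30, 3.17, 1.73 and 1.14 CPM in Sh2b3 -/- and 2.13, 2.12, 1.67, 1.21 and 1.44 CPM in wild type, so that every stimulated library exceeded every resting one and the genotypes overlapped. Pooled over libraries, the 2 h level was 68.8 times that at 0 h in Sh2b3 -/- (95% counting interval 28.8 to 215) and 348 times in wild type (61.3 to 13837), intervals that cover counting error only. At 6 h the values were 0.98, 5.82, 23.0, 1.58 and 3.17 CPM in Sh2b3 -/- and 4.08, 3.70, 5.41, 4.75 and 6.01 CPM in wild type. The wild-type libraries were close together, whereas the Sh2b3 -/- libraries lay both below and far above them. Il2 rose further between 2 and 6 h, by 2.05 ± 0.63 log2 units in Sh2b3 -/- (SE, adjusted p = 0.0134) and 1.46 ± 0.36 in wild type (adjusted p = 0.00176). Without the third Sh2b3 -/- library at 6 h the first of these was 0.79 (adjusted p = 0.274), and without that library, the third at 2 h and replicate 10 at 0 h it was 1.17 (adjusted p = 0.0978), a setting chosen after seeing the data. At 24 h it averaged 7.52 ± 1.96 CPM in Sh2b3 -/- and 6.61 ± 3.96 CPM in wild type (SD, n = 5 each), above the 6 h means of 6.91 CPM in Sh2b3 -/- and 4.79 CPM in wild type. The fit with the library-set term gave the opposite sign for 24 against 6 h, -0.83 ± 1.62 log2 units in Sh2b3 -/- and -0.86 ± 0.80 in wild type (adjusted p = 0.731 and 0.481). The 6 h and 24 h libraries belong to different sets that meet only at 0 h, where Il2 had the 5 reads and 1 read given above. With no set term the values were 0.14 ± 0.58 in Sh2b3 -/- and 0.45 ± 0.37 in wild type (adjusted p = 0.865 and 0.343), so that no direction can be given for this step.

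Il2ra, the alpha chain of the IL-2 receptor, had the largest rise among the 7 receptor chains. At 0 h it lay between 0.61 and 4.68 CPM in Sh2b3 -/- (median 1.95) and between 2.38 and 5.73 CPM in wild type (median 4.01). At 2 h it stood 5.20 ± 0.48 log2 units above 0 h in Sh2b3 -/- and 4.65 ± 0.21 in wild type, at 6 h 6.60 ± 0.50 and 5.52 ± 0.22, and at 24 h 7.56 ± 0.46 and 6.25 ± 0.21 (SE, adjusted p of 8.56e-09 or less throughout). No stimulated library came near a resting one. The step from 2 to 6 h was called in both genotypes (1.40 ± 0.37 in Sh2b3 -/-, adjusted p = 0.00599, and 0.87 ± 0.17 in wild type, adjusted p = 0.000179). That from 6 to 24 h was called in neither (0.96 ± 0.63, adjusted p = 0.26, and 0.73 ± 0.28, adjusted p = 0.0522), and leaving out any of 4 wild-type libraries brought the wild-type step under the threshold (0.63 to 0.86 log2 units, adjusted p = 0.0156 to 0.0454).

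The signalling chains of the IL-2 receptor moved much less. Il2rb rose by 2 h, by 1.27 ± 0.20 log2 units in Sh2b3 -/- (adjusted p = 9.47e-06) and 0.96 ± 0.08 in wild type (adjusted p = 8.77e-12). It then fell between 2 and 6 h, by 0.59 and 0.42 log2 units, and stood 1.19 ± 0.19 and 0.82 ± 0.08 above 0 h at 24 h (adjusted p = 7.35e-06 in Sh2b3 -/- and 7.83e-11 in wild type). The fall in Sh2b3 -/- (adjusted p = 0.0248) was lost on leaving out any of 5 libraries (-0.46 to -0.58, adjusted p = 0.0514 to 0.0761). Il2rg was not called higher at any time. Between 2 and 6 h it fell by 0.42 ± 0.11 log2 units in Sh2b3 -/- and 0.43 ± 0.07 in wild type (adjusted p = 0.00318 and 1.65e-05), and at 24 h it was -0.28 ± 0.10 from 0 h in Sh2b3 -/- (adjusted p = 0.0176) and -0.16 ± 0.07 in wild type (adjusted p = 0.051).

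The chain balance of the IL-2 receptor transcripts changed with time. Per kb, the ratio of Il2ra to Il2rb averaged 0.00798 (0 h), 0.0858 (2 h), 0.323 (6 h) and 0.691 (24 h) over the Sh2b3 -/- libraries. The wild-type means at the same times were 0.0124, 0.184, 0.455 and 0.495. At 2 h the ratios of the Sh2b3 -/- libraries (0.0764 to 0.0935) lay below all wild-type ratios (0.150 to 0.224). At 24 h the ranges overlapped (0.627 to 0.853 in Sh2b3 -/- and 0.320 to 0.733 in wild type). With anti-IL-2 the mean ratio was 0.391 in Sh2b3 -/- and 0.407 in wild type.

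**Figure D2:**
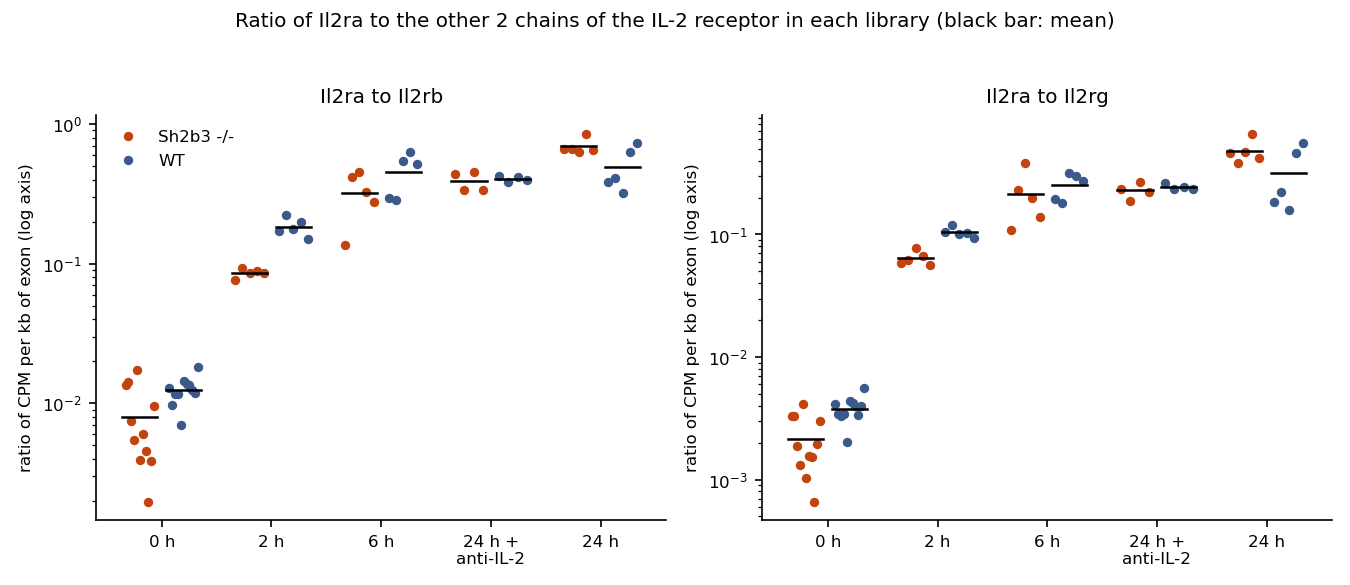
Ratio of Il2ra to Il2rb (left) and of Il2ra to Il2rg (right), each per kb of exon, in every library on a log axis, with Sh2b3 -/- (orange) left of wild type (blue) and black bars for group means. At 2 h all 5 Sh2b3 -/- ratios to Il2rb were below all 5 wild-type ratios, and at 24 h the genotypes overlapped.

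The receptor chains for IL-4 and IL-21 rose early and then fell under their resting level. Il4ra had 635, 537, 485, 640 and 375 CPM at 2 h in Sh2b3 -/- and 429, 452, 440, 478 and 456 CPM in wild type, against resting means of 242 ± 31.2 and 246 ± 26.4 CPM (SD, n = 11 each). It stood 1.11 ± 0.13 log2 units above 0 h in Sh2b3 -/- and 0.80 ± 0.08 in wild type at 2 h (SE, adjusted p = 5.3e-08 and 8.48e-11), and -0.31 ± 0.12 and -0.68 ± 0.08 from 0 h at 24 h (adjusted p = 0.0343 and 1.56e-09). The 24 h fall in Sh2b3 -/- was lost without replicate 1, 2 or 5 at 24 h (-0.26 to -0.29, adjusted p = 0.0764 to 0.0993). Il21r rose by 0.89 ± 0.16 and 0.70 ± 0.07 log2 units at 2 h (adjusted p = 2.63e-05 and 4.36e-10), and at 24 h was -0.58 ± 0.15 and -0.60 ± 0.07 from 0 h (adjusted p = 0.00157 and 4.77e-09), in Sh2b3 -/- and wild type in that order. At 6 h Il21r was not called different from 0 h in either genotype (0.00 ± 0.15 and 0.07 ± 0.07, adjusted p = 0.991 and 0.429).

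Il7r, the survival receptor of naive T cells, averaged 328 ± 70.5 CPM in Sh2b3 -/- and 364 ± 62.6 CPM in wild type at 0 h (SD, n = 11 each). It rose at 2 h, by 0.95 ± 0.26 log2 units in Sh2b3 -/- (adjusted p = 0.00397) and 0.73 ± 0.26 in wild type (adjusted p = 0.0199), and stood at a like level at 6 h (0.92 ± 0.26 and 0.72 ± 0.26, adjusted p = 0.00594 and 0.023). The wild-type calls were lost without replicate 1 at 2 h (0.61, adjusted p = 0.0617) and without replicate 5 at 6 h (0.66, adjusted p = 0.0552). At 24 h the 2 library sets had opposite signs. In set B the log2 difference from 0 h was -0.60 in Sh2b3 -/- and -0.99 in wild type (adjusted p = 2.03e-06 in wild type). In set C it was 0.62 in Sh2b3 -/- (adjusted p = 0.013) and 1.02 in wild type (adjusted p = 1.57e-05). Over both sets it was 0.19 ± 0.25 and 0.27 ± 0.25 and was not called (adjusted p = 0.527 and 0.363), a mean that describes neither set.

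The private chain of the IL-15 receptor ran the other way from Il4ra and Il21r. Il15ra averaged 10.2 ± 2.41 CPM in Sh2b3 -/- and 8.63 ± 1.77 CPM in wild type at 0 h. At 2 h it had 3.64, 3.91, 6.64, 3.39 and 4.01 CPM in Sh2b3 -/- and 7.51, 4.94, 5.69, 9.12 and 5.14 CPM in wild type, so that all 5 Sh2b3 -/- libraries lay under the lowest resting library of their genotype (6.80 CPM). The log2 difference from 0 h at 2 h was -1.27 ± 0.31 in Sh2b3 -/- (adjusted p = 0.00121) and -0.57 ± 0.25 in wild type (adjusted p = 0.0587). It rose between 2 and 6 h, by 1.83 ± 0.31 in Sh2b3 -/- (adjusted p = 5.92e-05) and 0.67 ± 0.25 in wild type (adjusted p = 0.0348, lost on leaving out any of 5 libraries, at 0.49 to 0.63). At 24 h it stood 1.04 ± 0.28 and 0.86 ± 0.25 above 0 h (adjusted p = 0.0026 and 0.00312). Il15, the ligand, stayed at or under 2.46 CPM in all libraries. Where it was too low for the fit, exact two-sided permutation tests gave p = 0.151 for genotype at 2 h (smallest possible 0.00794), p = 0.114 for genotype with anti-IL-2 (smallest possible 0.0286) and p = 0.0556 for the antibody in wild type, all with an adjusted p of 0.201 over 4 such tests. The fourth, Il2 between genotypes at 0 h, gave p = 0.476.

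**Figure D3:**
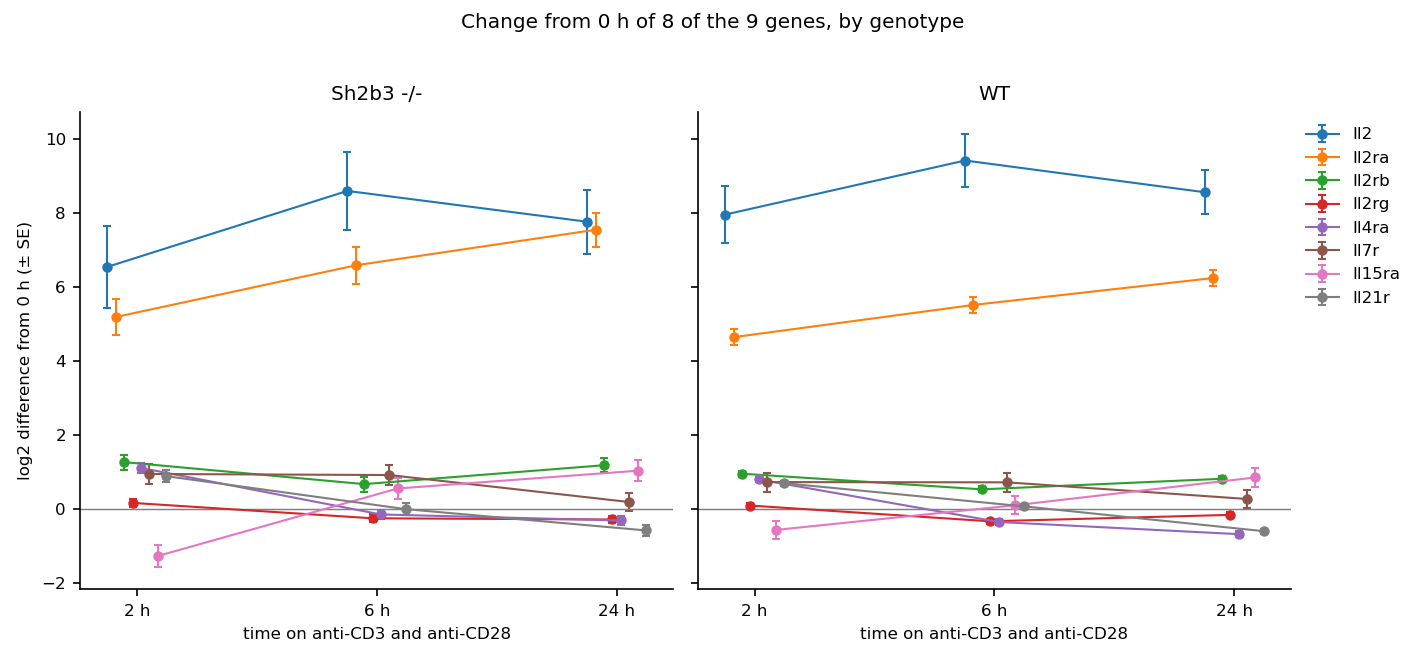
Log2 difference from 0 h (± SE) at 2, 6 and 24 h for 8 of the 9 genes, with Sh2b3 -/- on the left and wild type on the right; Il15 is left out for its low level. Il2ra climbed to 7.56 in Sh2b3 -/- and 6.25 in wild type, while Il4ra and Il21r peaked at 2 h and ended under 0.

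The comparison of genotypes asks what loss of Sh2b3 changes in these genes at a matched time. Among the 9 genes 1 call was made over the 5 comparisons, for Il2ra, which was lower in Sh2b3 -/- cells at 2 h. Its 5 Sh2b3 -/- libraries had 64.9, 72.3, 84.8, 68.2 and 47.0 CPM, against 111, 129, 109, 115 and 104 CPM in wild type. The highest Sh2b3 -/- library lay below the lowest wild-type library. The log2 difference was -0.76 ± 0.12 (SE, 95% interval -1.0 to -0.52, adjusted p = 0.0442), a level 59.4% of that in wild type. Of all 12372 genes tested at 2 h, 0.0647% were called, and 0.0323% were called lower. The direction was the same in all 14 alternatives (-0.86 to -0.65), and the call stood in 6 of them, 3 of them among the 10 that left out 1 library (adjusted p = 8.75e-11 to 0.17). It was lost without replicate 1, 2 or 4 of Sh2b3 -/- or any of replicates 1 to 4 of wild type (adjusted p = 0.104 to 0.17), and with DESeq2 size factors (adjusted p = 0.05). Markers of CD4 and regulatory T cells summed to 168 to 353 CPM in Sh2b3 -/- and 220 to 359 CPM in wild type at 2 h. Of these markers Ikzf2 itself rose from 0 to 2 h, by 1.56 log2 units in Sh2b3 -/- and 1.67 in wild type. Cd40lg was not called in that step. The sum is therefore not a measure of cell number alone. Foxp3, which defines the regulatory T cells that carry Il2ra at rest, stayed at or under 0.79 CPM in Sh2b3 -/- and 1.07 CPM in wild type at 2 h. The part of this list in the Il2ra difference was not tested.

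At 0 h Il2ra was also lower in Sh2b3 -/- cells, without passing the threshold. The difference was -0.87 ± 0.24 log2 units (95% interval -1.35 to -0.39, adjusted p = 0.105), with overlapping libraries. By library set it was -1.26 in A, -1.47 in B and -0.10 in C. By edgeR 0 of 8 members were called, against 0.633% of all genes. In edgeR 1 had an unadjusted p under 0.05, as had 1337 of all 12802 genes. DESeq2 called Il2ra (adjusted p = 0.0313), beside 165 of all genes, and limma voom called 0 members. Markers of CD4 and regulatory T cells summed to 44.8 to 219 CPM in Sh2b3 -/- at 0 h (median 74.99). The highest of these sums was that of replicate 10, whose Ikzf2 is given below. In wild type the sums were 93.6 to 123 CPM (median 105). Of these markers Cd40lg differed by -0.27, Ikzf2 by -0.34 and Foxp3 by -0.13 log2 units. None of them was called by edgeR (adjusted p = 0.319, 0.64 and 0.955). Their part in the 0 h Il2ra difference was not tested. At 6 h 0 of 9 members were called by edgeR, DESeq2 or limma voom (0 at an unadjusted p under 0.05 in edgeR, background 0.0306%, with 0.0153% higher and 0.0153% lower). Il2ra then had 69.2, 214, 369, 153 and 90.1 CPM in Sh2b3 -/- and 150, 134, 282, 256 and 231 CPM in wild type, a difference of -0.27 ± 0.40. The Sh2b3 -/- libraries spread on both sides of the wild-type ones.

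At 24 h the sign for Il2ra was the other way, and it rested on 1 library set. The Sh2b3 -/- libraries had 463, 406 and 463 CPM in set C and 565 and 354 CPM in set B, against 196, 240 and 178 CPM in set C and 422 and 487 CPM in set B in wild type. Within set C all Sh2b3 -/- libraries lay above all wild-type libraries, and within set B they lay on both sides. The difference was 0.63 ± 0.18 log2 units over both sets (95% interval 0.27 to 0.99, adjusted p = 0.187), 1.07 in set C (adjusted p = 0.00147) and -0.02 in set B. Without replicate 5 of Sh2b3 -/- it was 0.83 (adjusted p = 0.00476).

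Il4ra at 24 h had 186, 171, 213, 213 and 167 CPM in Sh2b3 -/- and 147, 150, 130, 160 and 150 CPM in wild type. These libraries did not overlap, and the log2 difference was 0.32 ± 0.09 (95% interval 0.14 to 0.50, adjusted p = 0.173), or 0.38 (adjusted p = 0.0371) without replicate 5 of Sh2b3 -/-. At 24 h edgeR and DESeq2 called 0 of 9 members, beside 0.372% of all genes in edgeR and 231 genes in DESeq2. In edgeR 3 members had an unadjusted p under 0.05, as had 1512 of all 12906 genes. With limma voom 1 was called (Il4ra, 0.35, adjusted p = 0.0221), beside 362 of all genes. Memory-phenotype markers other than Il2rb summed to 274 to 507 CPM in Sh2b3 -/- and 190 to 233 CPM in wild type at 24 h. Their sums already averaged 333 ± 93.5 and 217 ± 97.7 CPM at 0 h (SD), in the same order, with overlapping libraries. With anti-IL-2 they averaged 288 ± 45.3 and 212 ± 44.1 CPM, again overlapping. Gamma delta T cell markers averaged 155 and 274 CPM at 24 h. The part of either list in the 24 h differences was not tested.

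With anti-IL-2 the genotypes were close. Il2ra had 226, 183, 225 and 194 CPM in Sh2b3 -/- and 211, 200, 241 and 215 CPM in wild type, a difference of -0.05 ± 0.07 log2 units (95% interval -0.20 to 0.09, adjusted p = 0.886). By edgeR, DESeq2 and limma voom 0 of 8 members were called in this comparison, beside 0.35% of all genes in edgeR. In edgeR 2 had an unadjusted p under 0.05, as had 1274 of all 13441 genes. Those 2 were Il2 (0.89 ± 0.34, adjusted p = 0.398) and Il15ra (0.44 ± 0.17, adjusted p = 0.421). Il2 had 4.92, 10.8, 13.8 and 7.52 CPM in Sh2b3 -/- and 1.97, 6.55, 6.53 and 5.21 CPM in wild type, which overlapped.

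No genotype difference was called for the other chains. Il2rg differed by -0.13 to 0.05 log2 units over the 5 comparisons, with intervals from -0.33 to 0.18. Il21r differed by -0.14 to 0.21, and Il7r by -0.29 to 0.21 with an interval of -0.81 to 0.24 at 24 h. Il15ra was -0.59 ± 0.24 at 2 h and 0.44 ± 0.20 at 24 h (adjusted p = 0.325 and 0.401). Il2rb was 0.34 ± 0.12 higher at 2 h without being called (adjusted p = 0.276), with 638, 580, 745, 578 and 415 CPM in Sh2b3 -/- and 483, 434, 467, 431 and 519 CPM in wild type. At 0 h 1 Sh2b3 -/- library, replicate 10, had 381 CPM of Il2rb, above all others of its group, and Ikzf2 at 197 CPM. The Il2rb difference at 0 h was -0.09 ± 0.10 with it and -0.19 ± 0.06 without it (adjusted p = 0.832 and 0.108). The third Sh2b3 -/- library at 2 h and at 6 h held the most Il2 and Il2ra of its group, and its memory-phenotype markers other than Il2rb summed to 356 and 432 CPM, against 81.9 to 122 and 79.1 to 114 CPM in the other Sh2b3 -/- libraries of those times. Replicate 10 at 0 h, whose library number stands in the same place of its run, had 499.6 CPM, the highest of its group.

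**Figure D4:**
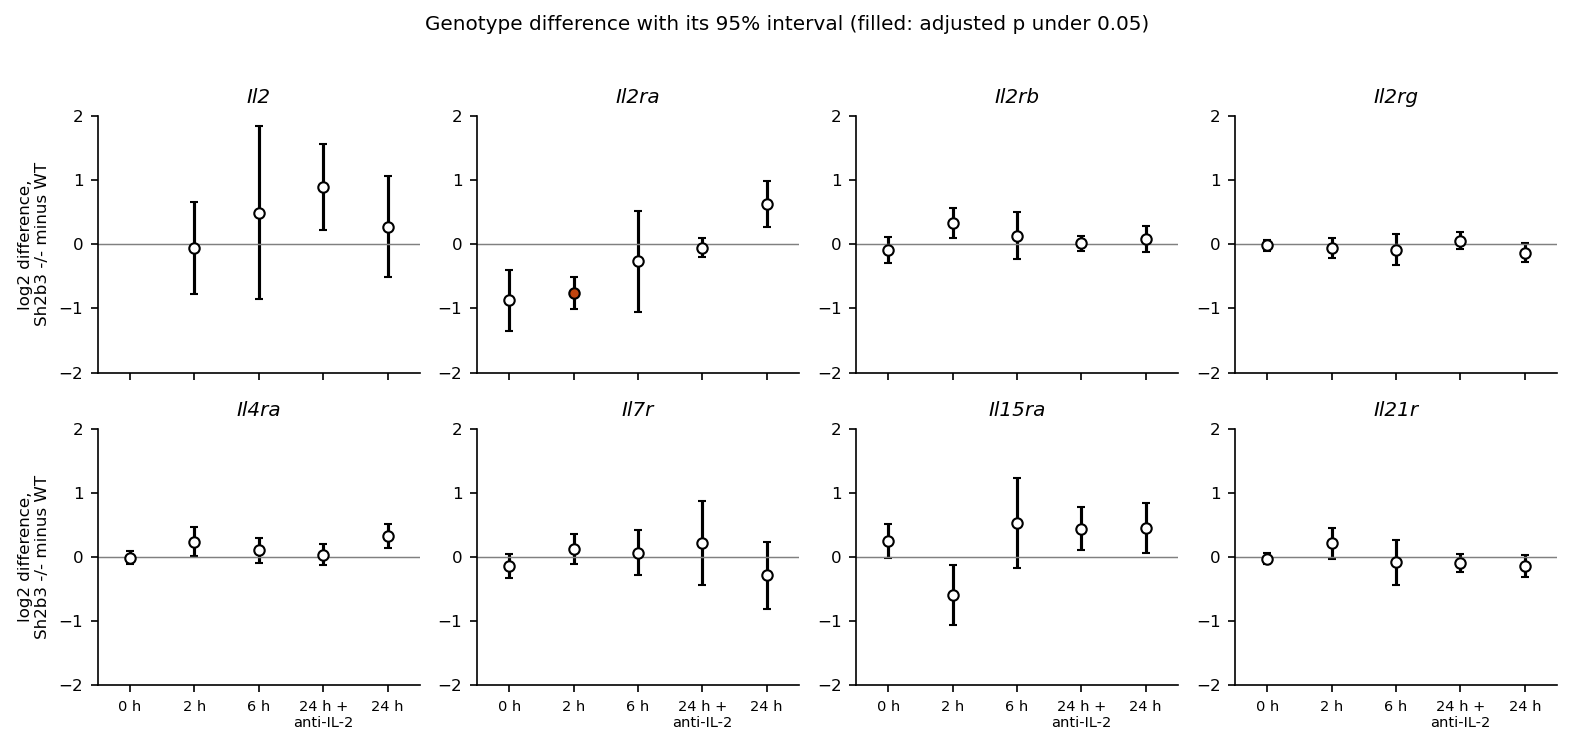
Log2 difference between Sh2b3 -/- and wild type for 8 of the 9 genes in 5 comparisons, with 95% intervals; positive means higher in Sh2b3 -/-, and the filled point is the 1 call. Il2ra ran from -0.87 at 0 h and -0.76 at 2 h to 0.63 at 24 h without antibody, and was -0.05 with anti-IL-2.

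Whether the genotype altered the change from 0 h was tested as an interaction. For Il2ra the rise was larger in Sh2b3 -/- by 0.55 ± 0.51 log2 units at 2 h, 1.07 ± 0.51 at 6 h (p = 0.0414, adjusted p = 1) and 1.27 ± 0.47 at 24 h (p = 0.0098, adjusted p = 0.288). By edgeR and by DESeq2 0 of the 9 members were called in any of these 3 tests, with 1, 1 and 2 at an unadjusted p under 0.05 in edgeR. Of all genes edgeR called 0% at 2 h, 0% at 6 h and 0.0317% at 24 h. An unadjusted p under 0.05 was reached by 562, 533 and 1784 of all 15762 genes, in the same order. The 3 tests share the 0 h libraries.

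The anti-IL-2 cultures ask which of these genes depend on IL-2 in the medium. In Sh2b3 -/- cells Il2ra and Il4ra were lower and Il21r was higher with the antibody than without it. Il2ra had 226, 183, 225 and 194 CPM with anti-IL-2, against 354 to 565 CPM without it (median 463). No library with antibody reached the lowest without. The log2 difference was -1.09 ± 0.12 (SE, adjusted p = 0.000272), a level 46.0% of that without antibody, and it was called in all 14 alternatives (-1.17 to -1.02), set B alone (-1.08) and set C alone (-1.11) included. Of all genes tested in this comparison 2.37% were called higher and 2.9% lower, 5.27% in all, against 3 of the 9 members.

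Il4ra had 111, 116, 125 and 133 CPM with anti-IL-2 and 167 to 213 CPM without it in Sh2b3 -/- cells, again without overlap (-0.62 ± 0.11, adjusted p = 0.00433, called in 14 of 14 alternatives). Il21r had 208, 182, 212 and 212 CPM with the antibody and 125 to 170 CPM without it (0.45 ± 0.10, adjusted p = 0.0225). Every Il21r value with antibody exceeded every value without. The Il21r call stood in 11 of 14 alternatives and was lost without replicate 1, 3 or 4 of the anti-IL-2 group (adjusted p = 0.0706 to 0.0842). Il2rb (-0.26 ± 0.10, adjusted p = 0.172), Il2rg (-0.04 ± 0.11) and Il7r (-1.06 ± 0.38, adjusted p = 0.139) were not called.

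In wild type the antibody was accompanied by higher Il21r and lower Il7r, 2 of 8 members tested, beside 1.8% of all genes called higher and 2.6% lower (4.4% in all). Il21r had 196, 217, 253 and 213 CPM with anti-IL-2 and 150 to 174 CPM without it, with no overlap (0.41 ± 0.09, adjusted p = 0.0235). That call stood in 9 of 14 alternatives, 4 of them among the 9 that left out 1 library, and was lost without replicate 3 of the untreated group or any 1 of the anti-IL-2 libraries (0.35 to 0.45, adjusted p = 0.053 to 0.108). Il7r had 215, 162, 133 and 158 CPM with the antibody, against 864, 724 and 616 CPM without it in set C and 242 and 205 CPM in set B. The libraries of set B overlapped those with antibody and those of set C did not. Il7r differed by -1.71 ± 0.40 log2 units against both sets (adjusted p = 0.0347, called in 5 of 14 alternatives), -2.22 against set C (adjusted p = 1.82e-07) and -0.39 against set B (adjusted p = 0.313). Leaving out any of 7 of the 9 libraries lost the call, the 4 anti-IL-2 libraries among them (adjusted p = 0.0639 to 0.127).

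Il2ra in wild type was divided by set in the opposite way. With anti-IL-2 it had 211, 200, 241 and 215 CPM, against 422 and 487 CPM without it in set B and 196, 240 and 178 CPM in set C. The log2 difference was -1.04 against set B (adjusted p = 7.13e-08), 0.00 against set C (adjusted p = 0.999) and -0.50 ± 0.25 against both (adjusted p = 0.278). Il4ra was lower in every antibody library than in any without (107 to 130 against 130 to 160 CPM) and was not called by edgeR (-0.32 ± 0.10, adjusted p = 0.0761), whereas DESeq2 called it (-0.34, adjusted p = 0.0176) beside Il7r, also lower, and Il21r, higher. Il2 itself was called in neither genotype (0.33 ± 0.31 in Sh2b3 -/- and -0.40 ± 0.49 in wild type, adjusted p = 0.623 and 0.708).

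**Figure D5:**
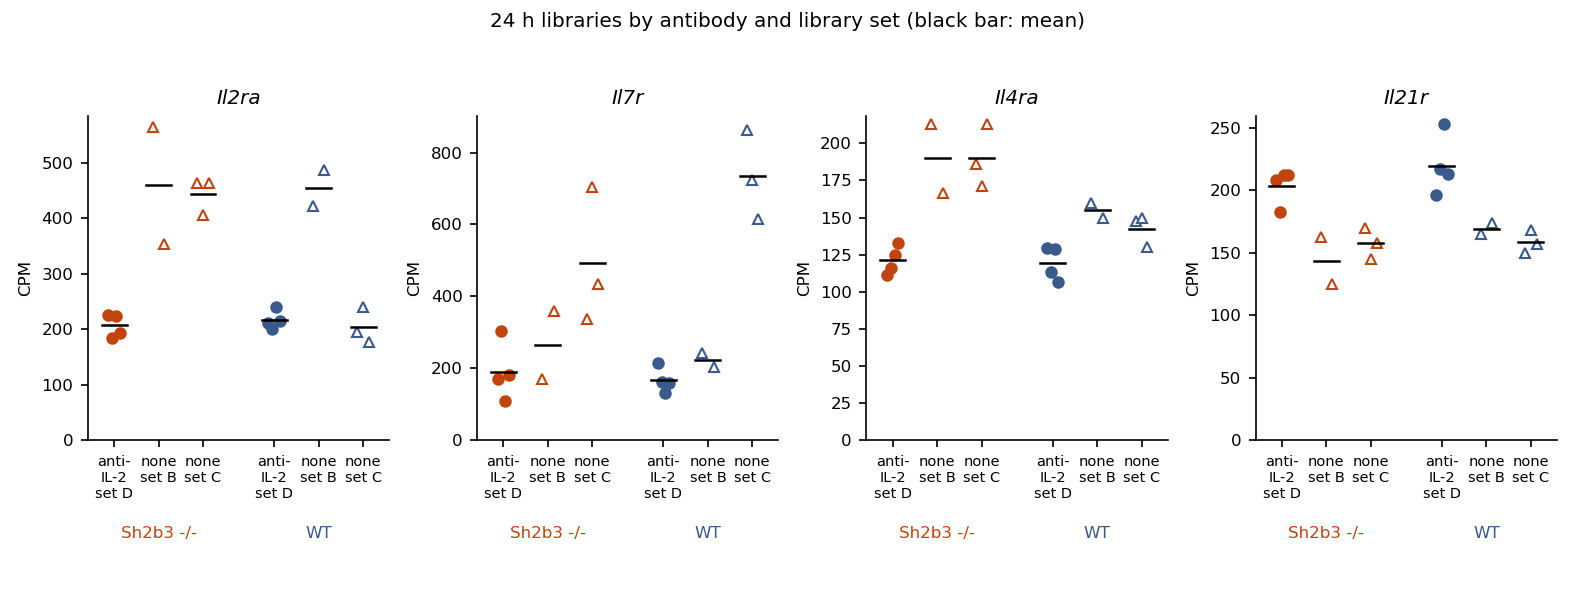
CPM of Il2ra, Il7r, Il4ra and Il21r in the 24 h libraries, with anti-IL-2 (set D, filled circles) left of the libraries without it from sets B and C (open triangles), Sh2b3 -/- in orange and wild type in blue; black bars are means. Il2ra without antibody was high in both sets of Sh2b3 -/- cells and in set B alone of wild type, and Il7r without antibody was highest in set C.

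The difference between genotypes in the effect of the antibody was tested directly. For Il2ra it was -0.59 ± 0.31 log2 units (p = 0.0698, adjusted p = 1), where a negative value is a larger fall in Sh2b3 -/-. It was -1.11 ± 0.14 (adjusted p = 0.000909) with set C alone as the untreated libraries and -0.06 (adjusted p = 1) with set B alone. By edgeR and DESeq2 0 of 9 members were called, beside 0% of all genes in edgeR. In edgeR 1 member (Il4ra, -0.30 ± 0.14) had an unadjusted p under 0.05, as had 650 of all 14778 genes. Because all antibody libraries form 1 set of their own, and because markers moved with it, the antibody comparisons hold IL-2 blockade and library set, which cannot be told apart. Of 5 gamma delta T cell markers 3 were lower with antibody in Sh2b3 -/- and 4 in wild type, beside 2.9% and 2.6% of all genes, with summed means of 98.9 against 155 CPM and 129 against 274 CPM. Of the CD8 T cell markers Cd8b1 and Trac were lower in wild type (-0.90 ± 0.23 and -0.46 ± 0.10, adjusted p = 0.049 and 0.0237). Their part in the receptor values was not tested.

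Genes that act downstream of these receptors were read beside them. Of 22 IL-2 and STAT5 target genes, 16 stood above and 2 below 0 h at 24 h in Sh2b3 -/- cells, and 13 above and 4 below in wild type, with median log2 differences of 1.17 and 1.05 against -0.05 and -0.09 over all genes. Of all genes 30.1% were called higher and 29.8% lower in Sh2b3 -/-, and 27.8% higher and 31.6% lower in wild type. Cish, an inhibitor of STAT5 signalling that STAT5 itself induces, averaged 96.6 ± 20.7 CPM in Sh2b3 -/- and 41.3 ± 29.5 CPM in wild type at 24 h (SD, n = 5 each). With anti-IL-2 it averaged 8.61 ± 3.22 and 8.20 ± 1.25 CPM (SD, n = 4 each), a log2 difference from cells without antibody of -3.47 ± 0.24 in Sh2b3 -/- (adjusted p = 1.4e-05) and -2.33 ± 0.44 in wild type (adjusted p = 0.0136).

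With the antibody 11 of 21 target genes were lower and 0 higher in Sh2b3 -/-, and 7 of 22 lower and 0 higher in wild type, beside 2.9% and 2.6% of all genes called lower (medians -0.60 and -0.43, against -0.01 and 0.01 over all genes). Among them Socs1, a further inhibitor of JAK signalling, fell by 1.63 log2 units in Sh2b3 -/- and by 1.67 in wild type (adjusted p = 4.87e-05 and 1.19e-05). The survival gene Bcl2 fell by 1.51 and 0.87 (adjusted p = 3.28e-05 and 0.0253), and Pim1, a survival kinase, by 1.60 and 1.13 (adjusted p = 0.000205 and 0.00191). Between genotypes 1 of 21 was called at 24 h, the cytokine gene Lta, higher in Sh2b3 -/- by 1.64 ± 0.26 (adjusted p = 0.0186), beside 0.372% of all genes called and 0.225% called higher. A further 14 were higher at an unadjusted p under 0.05, which 1512 of all 12906 genes met in either direction. DESeq2 called 9 and limma voom 7 higher, beside 231 and 362 of all genes called by these tools in either direction. The list's median was 0.42 at 24 h without antibody and 0.02 with it. The genotype values without antibody are over sets B and C together, and this list was not examined by set.

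Among 16 JAK-STAT transducers and phosphatases 0 were called between genotypes at 0, 2, 6 or 24 h without antibody by edgeR, DESeq2 or limma voom. Of all genes edgeR called 0.633%, 0.0647%, 0.0306% and 0.372% at these times. An unadjusted p under 0.05 in edgeR was reached by 5 (0 h), 3 (2 h), 1 (6 h) and 0 (24 h) of the list. Over all genes 1337 of 12802, 1623 of 12372, 743 of 13082 and 1512 of 12906 reached it, in the same order. Jak3, the kinase that binds the common gamma chain, was lower at 24 h than at 0 h by -1.10 ± 0.16 log2 units in Sh2b3 -/- and -1.27 ± 0.12 in wild type, and Stat5a was higher by 0.64 ± 0.12 and 0.70 ± 0.08. Both of those genes were called in each genotype. Pik3cd, a catalytic subunit of PI3-kinase, was lower with anti-IL-2 in each genotype (-0.89 ± 0.11 in Sh2b3 -/- and -0.96 ± 0.10 in wild type, adjusted p = 0.000581 and 0.000675). Of 10 other cytokine and receptor chain genes related to this family, 1 gene, Crlf2, was expressed highly enough to be tested across time.

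Of 14 transcription factors known to act on Il2 or Il2ra, 2 were called between genotypes at 0 h, both lower in Sh2b3 -/- cells, beside 0.633% of all genes called and 0.305% called lower. Egr3 averaged 15.5 ± 2.78 CPM in Sh2b3 -/- and 25.5 ± 4.06 CPM in wild type (SD, n = 11 each), a difference of -0.72 ± 0.08 log2 units (SE, adjusted p = 1.64e-06). Egr2 averaged 6.38 ± 1.40 and 9.38 ± 1.36 CPM (-0.56 ± 0.12, adjusted p = 0.0165). Both are early growth response factors induced through the T cell receptor. At 2 h neither was called between genotypes, and Egr3 averaged 744 ± 426 CPM in Sh2b3 -/- and 651 ± 166 CPM in wild type. At 24 h Jun was higher in Sh2b3 -/- (0.79 ± 0.15, adjusted p = 0.0364). Of 10 factors of Il7r or Il2rb, Tbx21 was higher in Sh2b3 -/- at 24 h (1.18 ± 0.21, adjusted p = 0.0241). At 24 h 0.372% of all genes were called between genotypes and 0.225% called higher. Tbx21 is also among the memory-phenotype markers whose 24 h sums are given above, so the 2 results are not separate. Klf2, a quiescence factor of naive T cells, was lower with anti-IL-2 in both genotypes (-1.45 in Sh2b3 -/- and -1.94 ± 0.39 in wild type, adjusted p = 0.0439 and 0.0186).

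Across the 10 group means of log2 CPM, the gene most like Il2 among 9855 genes of at least 4 CPM in a group was Ccl3, a chemokine gene of activated T cells (Pearson r = 0.994), followed by Chst2 and Smarcc1 (0.993 and 0.991). Ccl3 was also the most like Il2ra (0.991). Il2 and Il2ra correlated with each other at 0.981. Gimap4 was most like Il7r (0.975), Eif4e2 most like Il2rb (0.988), Ginm1 most like Il4ra (0.983) and Phip most like Il21r (0.986). Il4ra and Il21r correlated at 0.838, and Il15ra ran against both (-0.892 with Il4ra and -0.918 with Il21r). The best match of Il2rg, Tnfaip8, reached 0.935. These values describe 10 means that share the time course and carry no test.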

How the data were processed

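PolyA RNA of 60 libraries was sequenced. Per the submitters' processing notes, the tools were FastQC 0.119.9, STAR 2.7.9a, SAMtools, Picard 2.42.2 and featureCounts 2.0.1 of Subread, with build GRCm39. The strand setting and annotation release are not given in the sources used here, so reads of overlapping antisense genes cannot be told apart. The deposited values are raw counts per gene, made by the authors. Names were matched for 52081 of 55414 identifiers. Levels (CPM) were scaled by TMM. Tests used edgeR 4.0.16 (quasi-likelihood F test, robust, filterByExpr with a minimum count of 10) in R 4.3.3 over all genes passing the filter, with Benjamini-Hochberg adjustment and a threshold of 0.05. SE is the absolute log2 difference over the square root of F, and intervals are normal 95% intervals. Genotype fits at 0 and 24 h and time fits hold a library-set term, and antibody fits cannot. Alternatives were DESeq2 1.42.0, limma 3.58.1 (voom), DESeq2 size factors, no filter, no set term and single sets. Each stimulated library was also left out in turn. Of the 0 h libraries only replicate 10 of Sh2b3 -/- was left out singly, in the genotype fit at 0 h. Chosen after seeing the data were a block by library number and leaving out 3 libraries that share one. The scripts were tested on simulated data. No libraries were duplicates. Figures were drawn with matplotlib 3.10.9 in Python 3.11.15. The named genes are the 9 members, Sh2b3, up to 6 called genes a list by smallest adjusted p, and, for each member reaching 4 CPM, the 3 genes of highest Pearson r over the 10 group means; others named were chosen after their values were seen. The members and lists were chosen with earlier results of these data known. A result of the JAK-STAT list is not reported here.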

Additional observations from a re-analysis of the deposited data

Results flagged for a closer look

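Of 72 groups of 4 to 10 libraries tested for a value far from the others (Dixon's test at 95%), 6 held one, and chance gives about 1 in 20. Il2 in replicate 3 of Sh2b3 -/- at 6 h was 23.011 CPM, with the next at 5.82 CPM. Il7r was 756.63 CPM in replicate 5 of Sh2b3 -/- at 2 h (next 573 CPM) and 702.543 CPM in replicate 1 of wild type at 2 h (next 521 CPM). Il15ra was 6.6382 CPM in replicate 3 of Sh2b3 -/- at 2 h (next 4.01 CPM) and 11.7695 CPM in replicate 1 of wild type at 24 h with anti-IL-2, below the next at 15.2 CPM. Il21r was 182.477 CPM in replicate 2 of Sh2b3 -/- at 24 h with anti-IL-2, below the next at 208 CPM.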

How the results depend on the processing

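Counts of genes called between Sh2b3 -/- and wild type moved with the tool. At 0 h 81 became 477 with no filter, 165 in DESeq2, 28 with no set term, 6 in set A and 137 without replicate 10 of Sh2b3 -/-. At 2 h 8 became 4 with DESeq2 size factors, 230 with no filter, 122 in DESeq2 and 82 in voom, and 3 to 63 on leaving out 1 library. At 6 h 4 became 28 in DESeq2 and 11 in voom (3 to 5 on leaving out 1 library). At 24 h 48 became 362 with no filter, 231 in DESeq2, 362 in voom, 3 with no set term and 11 in set B (8 to 361). With anti-IL-2 47 became 191 with no filter, 141 in DESeq2 and 113 in voom (10 to 76). For the antibody, 721 in Sh2b3 -/- became 1261 in DESeq2 and 1616 against set C (264 to 1092), and 584 in wild type became 1344 in DESeq2, 1604 against set B and 3857 against set C (145 to 1223). Interactions at 2, 6 and 24 h gave 0, 0 and 5, with no filter 32, 78 and 206. At 24 h they gave 0 with size factors, 105 in DESeq2, 17 with no set term and 0 to 25 on leaving out 1 library, and that with the antibody gave 0, 1 in DESeq2 and 16 with set C untreated libraries. Leaving out 1 library gave, in Sh2b3 -/-, 6631 to 6849 calls at 2 h, 5727 to 6228 at 6 h and 8365 to 8914 at 24 h against 0 h, 3908 to 4482 from 2 to 6 h and 4352 to 5379 from 6 to 24 h. In wild type the ranges were 7343 to 7463, 6671 to 6915, 8301 to 8686, 4959 to 5201 and 4245 to 5093. Il7r at 24 h against 0 h in wild type was -0.99 in set B, against 0.27 over both sets, where that setting also moved the median of all genes by 0.10. Among called members' 788 alternatives, 727 kept the call, 61 lost it and 0 turned round. The cause of these changes was not tested. The labels state no pairing, but library numbers recur at steps of 10 (set A) or 20 (sets B and C) between times. Of 40 pairs with matching numbers 18 deviated together from their group means at r over 0.1 (-0.07 to 0.671). In set A of Sh2b3 -/- these were 4 of 5 pairs for 0 and 2 h, 4 of 5 for 0 and 6 h and 5 of 5 for 2 and 6 h. The last had r of 0.189 to 0.671, against -0.432 to 0.258 for pairs of other numbers. In set A of wild type they were 3, 1 and 1 of 5, and in sets B and C 0. Whether libraries of 1 number share an animal was not tested. A replicate block by library number, chosen after seeing the data, gave, in the order 2, 6 and 24 h against 0 h, 6 against 2 h and 24 against 6 h, 7336, 6425, 8833, 4719 and 5152 calls in Sh2b3 -/- and 7484, 6724, 8300, 5056 and 4100 in wild type. Leaving out the 3 Sh2b3 -/- libraries of 1 such number, also chosen after seeing the data, gave 28 calls for the 24 h interaction, and Il21r from 6 to 24 h lost its call (-0.45, adjusted p = 0.0761). Under the block, from 6 to 24 h, Il2rb in Sh2b3 -/- (adjusted p = 0.00678) and Il2ra and Il2rb in wild type (0.0411 and 0.0421) were called higher, Il4ra in wild type lost its call (0.055), and Il2rg in Sh2b3 -/- was called lower at 6 h (0.0258). Low counts limit Il2 at 0 h and Il15.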
